A study of Homo sapiens with 9 samples.

Results

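HSP70 and HSP110 chaperone genes were followed in cultures of MV4-11, a human cell line established from acute myeloid leukaemia, that had been kept for 24 h with JPX-0700, JPX-0750 or the solvent DMSO. By the series title both compounds degrade STAT3 and STAT5, a pair of transcription factors. No source used here gives their doses or structures, so whether doses matched is unknown. Each group had 3 libraries made with the QuantSeq kit, which primes on poly(A) tails and reads the 3′ end of RNA. No source used here says whether the 3 libraries of a group came from separate cultures, or whether treated and DMSO libraries were prepared together. The p-values therefore measure the spread between these libraries, which may be technical.

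The members were 10 genes chosen by symbol, and all 10 were rows of the deposited table of 26929 genes. Of these, 4 are usually described as inducible by stress, namely HSPA1A, HSPA1B, HSPA6 and HSPH1. The other 6, HSPA8, HSPA4, HSPA4L, HSPA2, HSPA13 and HSPA14, were counted here as constitutive. Comparisons of the classes depend on this assignment, which was not tested. All values are the authors' normalised counts, that is, read counts divided by a factor for each library. A gene was tested if its mean over the 9 libraries was at least 5 normalised counts. This filter kept 9 of the 10 members and 12301 genes in all. HSPA6 and HSPA1B passed it only through the treated libraries, since their DMSO means were 0.256 and 0.128. "Rose" and "fell" mean an adjusted p under 0.05 in limma, with Benjamini-Hochberg adjustment over all genes tested.

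HSP70 proteins bind exposed hydrophobic stretches of unfolded proteins and release them in a cycle of ATP binding and hydrolysis. J-domain proteins start the hydrolysis, and HSP110 proteins, which are distant relatives of HSP70, act with BAG proteins to exchange ADP for ATP and so free the client. In most cells HSPA8 supplies the everyday activity, while the transcription factor HSF1 switches on HSPA1A, HSPA1B, HSPA6 and HSPH1 when misfolded proteins accumulate. HSF1 binds inverted repeats of the unit nGAAn, called heat shock elements.

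The stretches before the listed starts of 4 genes are printed because they hold such repeats, and because these genes span the range of responses described below. They are from RefSeq on GRCh38.p14, 5′ to 3′ on the gene's own strand, and capitals mark the repeats.
HSPA6, chr1:161524340-161524539, plus strand: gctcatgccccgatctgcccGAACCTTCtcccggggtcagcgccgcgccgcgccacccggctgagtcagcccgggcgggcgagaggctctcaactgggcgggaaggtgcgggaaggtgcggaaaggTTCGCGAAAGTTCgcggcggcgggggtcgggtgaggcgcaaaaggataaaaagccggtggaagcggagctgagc
HSPA1A, chr6:31815343-31815463, plus strand: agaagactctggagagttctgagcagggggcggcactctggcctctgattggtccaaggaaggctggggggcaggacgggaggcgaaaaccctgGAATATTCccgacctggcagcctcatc
HSPA1B, chr6:31827539-31827659, plus strand: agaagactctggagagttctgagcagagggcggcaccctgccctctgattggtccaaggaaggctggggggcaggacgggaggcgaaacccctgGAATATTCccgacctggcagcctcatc
HSPA8, distal, chr11:123062345-123062374, minus strand: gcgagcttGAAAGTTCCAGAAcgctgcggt
HSPA8, proximal, chr11:123062170-123062199, minus strand: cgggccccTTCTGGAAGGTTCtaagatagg

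The letters searched were GAANNTTC and TTCNNGAA, each of which reads the same on both strands. In the 3-unit forms the alternation runs on for a further unit, GAA after the first and TTC after the second, again after NN. These are each other's reverse complement, so both strands were covered, and each contains both 2-unit forms. The search covered the 250 bases before each RefSeq start, which were listed for 9 of the 10 members and not for HSPA14. The listed start of HSPA8, at 123062136, lies 326 bases inside its annotated span, so both stretches printed for it are within that span, and that of HSPA2 lies 4836 bases inside. The bases before the outer ends of these 2 spans were not searched. A 2-unit form was present in 11.6% of the 35116 windows of all genes and a 3-unit form in 0.441%. HSPA6 held a 3-unit form from -74 to -62 and a separate 2-unit form from -180 to -173, counted from the base before the start. HSPA8 held 3-unit forms from -230 to -218 and from -55 to -43. HSPA1A and HSPA1B each held a single 2-unit form, from -106 to -99 and from -105 to -98, in stretches that were identical at 117 of 121 bases. Before the second of its 3 listed starts, HSPA4L held a 2-unit form from -170 to -163. These letters were not in the windows of HSPH1, HSPA4, HSPA2 and HSPA13. A match describes the sequence and does not show binding. Repeats that depart from these letters were not searched, so a window without a match may still hold a heat shock element.

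Libraries differed in ways that touch every value below. JPX-0700 libraries held 739418 to 1852375 reads on genes and JPX-0750 libraries 726043 to 1941860, against 2701317 to 6305586 with DMSO. One read was worth 1.67 to 4.61 normalised counts in treated libraries and 0.383 to 0.898 with DMSO. Small structured RNAs, which mostly lack a poly(A) tail, took 8.36% to 10.2% of reads with JPX-0700 and 11.2% to 13.5% with JPX-0750, against 0.0432% to 0.263% with DMSO. In each group 1 library detected fewer genes than the others: JPX-0700 replicate 3, JPX-0750 replicate 3 and DMSO replicate 1. Of 10 markers of acute myeloid leukaemia cells 7 had a mean of at least 5 normalised counts. Among the remaining 3, CD14 had no read, MPO 62 reads and HOXA9 5 reads over all libraries. The summed level of the 10 was 2326 to 4032 normalised counts with JPX-0700, 1941 to 3795 with JPX-0750 and 5178 to 8635 with DMSO. Most of that sum was LYZ, the lysozyme gene, at 1868 ± 757 with JPX-0700 and 1557 ± 1039 with JPX-0750, against 5336 ± 1787 with DMSO (SD, n = 3 each). Not every marker was lower, since MEIS1, a leukaemia transcription factor, had 392 ± 298 with JPX-0700 and 424 ± 112 with JPX-0750, against 162 ± 40.1 with DMSO. Summed T cell markers reached 77.8 normalised counts, in JPX-0700 replicate 3, and B cell markers 40.9. Erythroid markers reached 3.42, and epithelial and fibroblast markers 108, in JPX-0750 replicate 3, from COL1A1 alone. The part of these differences in the results was not tested. In bulk RNA, fewer cells of a kind and less RNA per cell cannot be told apart.

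The main question was how the inducible members compared with the constitutive ones. Under either compound 2 of the 3 inducible genes tested rose, HSPA6 and HSPH1. Of the 6 constitutive genes tested 2 rose, HSPA4L and HSPA2. HSPA8, the main constitutive HSP70, had a log2 difference of 1.41 ± 0.43 (SE) under JPX-0700 and 1.002 ± 0.43 under JPX-0750, short of the threshold. HSPA4, HSPA13 and HSPA14 did not pass. HSPA1A and HSPA1B, the best known stress-induced members, were almost without reads in all 9 libraries.

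Of the 9 members tested with JPX-0700, 4 rose and 0 fell, while 5.28% of all genes tested rose and 0.496% fell. With JPX-0750 4 of 9 rose and 0 fell, while 3.9% of all genes rose and 0.0732% fell. The members' median log2 fold change was 2.36 with JPX-0700 and 2.29 with JPX-0750, against 0.14 and 0.26 over all genes. Both member medians are the fitted value of HSPA1B, which had 8, 10 and 1 reads with JPX-0700, JPX-0750 and DMSO, and without that gene they were 2.24 and 1.93. Over the other 21 settings the median of the members tested ran from 1.34 to 3.08 with JPX-0700 and from 0.82 to 2.66 with JPX-0750. JPX-0700 libraries lay wholly above DMSO libraries for 5 of 9 members and for 16.5% of all genes. JPX-0750 libraries did so for 6 of 9 members and for 19.7% of all genes. Both comparisons share the DMSO libraries. By class, 2 of 3 inducible and 2 of 6 constitutive genes tested rose with each compound. The inducible median, which is the value of HSPH1, was 3.08 with JPX-0700 and 2.66 with JPX-0750. The constitutive median was 1.10 with each. HSPA1A, which did not pass the filter, is in none of these counts, and the difference between the classes was not tested.

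**Figure D1:**
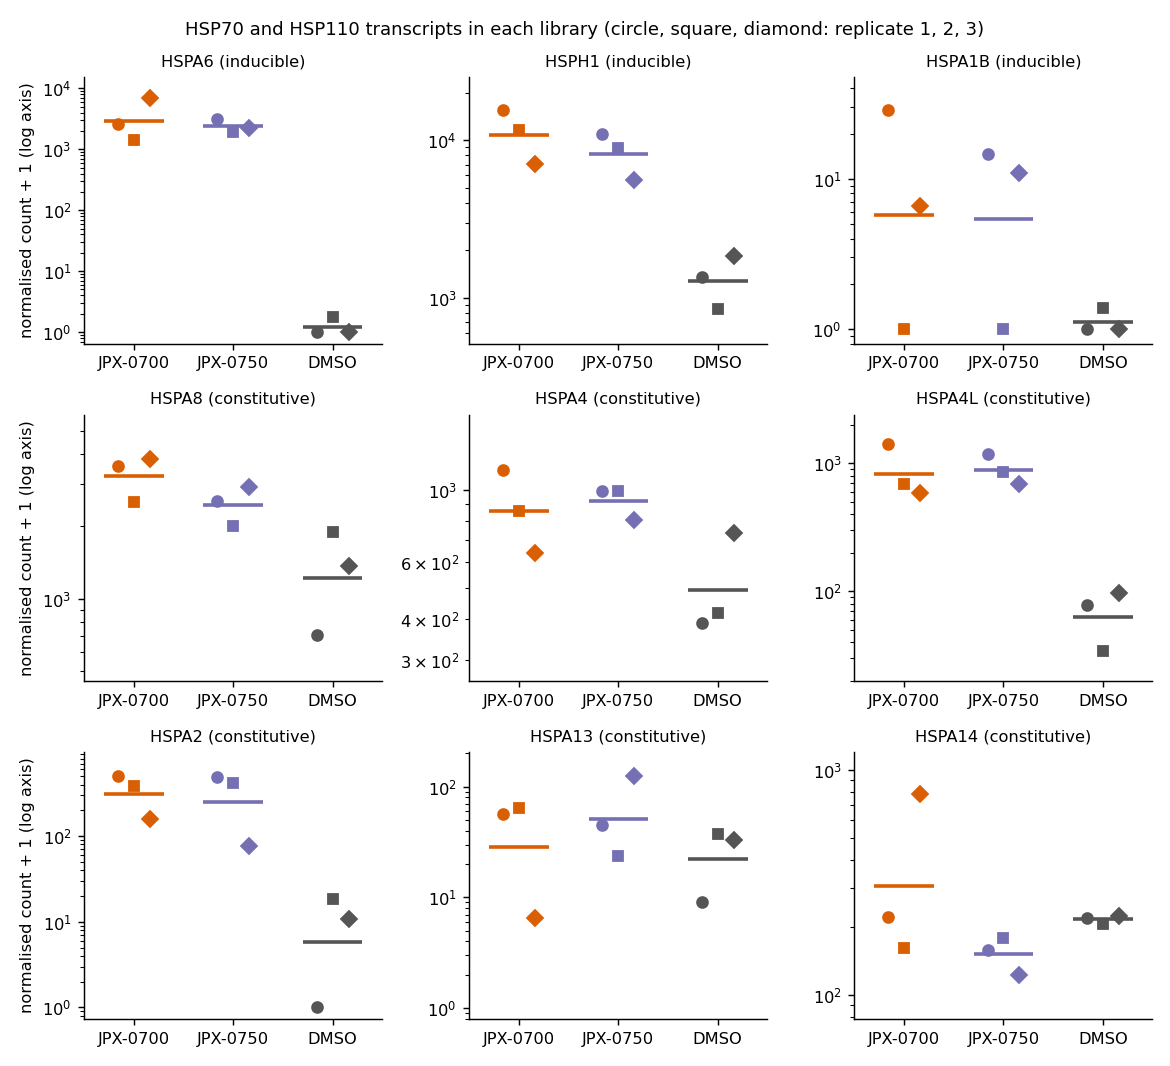
Normalised count + 1 on a log axis (y) of 9 members in each of the 9 libraries, by group (x). Symbols mark replicates and horizontal lines the mean of the log values in a group. Treated libraries lay wholly above DMSO libraries for HSPA6, HSPH1, HSPA8, HSPA4L and HSPA2 with both compounds, and for HSPA4 with JPX-0750.

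HSPA6 (chromosome 1, 161524540 to 161526894 in GRCh38, NCBI gene 3310) encodes HSP70B′, a human HSP70 known for near silence in unstressed cells. It had 2572, 1401 and 7003 normalised counts under JPX-0700 and 3180, 1892 and 2242 under JPX-0750, against 0, 0.767 and 0 with DMSO. Every treated library was thus high, and DMSO libraries held 2 reads of HSPA6 in all, both in replicate 2. The reads behind the treated values were 3454 over the JPX-0700 group and 2691 over the JPX-0750 group.

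Per scaled depth the ratio of HSPA6 reads was 11400 with JPX-0700 over DMSO, with an exact 95% counting interval of 3154 to 94173. With JPX-0750 it was 6749, with an interval of 1866 to 55757. These intervals cover counting error of the pooled reads only and leave out the spread between libraries. The protocol text names no molecular identifiers, and reads that copy the same molecule would make the intervals too narrow. On the log2(normalised count + 1) scale the changes were 11.25 ± 0.63 (SE, n = 3 per group, limma adjusted p = 1.90e-09) and 10.94 ± 0.63 (adjusted p = 1.61e-09). The added 1 sets the size of these fitted values, which ran from 9.13 to 12.59 with JPX-0700 over the other settings tried. Without JPX-0700 replicate 3, the highest library, the change was 10.62.

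HSPA7 (chromosome 1, 161606172 to 161608550) is a transcribed pseudogene closely related to HSPA6. Of the 70-base windows of its longest GENCODE 29 transcript, 45.5% also occur in that of HSPA6, and 32.7% in its last 500 bases. It had 258, 373 and 206 normalised counts under JPX-0700 and 459, 286 and 112 under JPX-0750, against 0, 0.383 and 0 with DMSO. HSPA7 rose with both compounds, by 7.93 ± 0.97 (SE, n = 3 per group, limma adjusted p = 2.96e-05) and 7.79 ± 0.97 (adjusted p = 3.47e-05). Against 1 DMSO read, the ratio of HSPA7 reads per scaled depth was 1518 with JPX-0700 (exact 95% counting interval 270 to 60226) and 1324 with JPX-0750 (236 to 52499). For every 100 reads of HSPA6 there were 10.0, 26.6 and 2.94 of HSPA7 in the JPX-0700 libraries and 14.4, 15.1 and 4.98 in the JPX-0750 libraries. The ratio was lowest in replicate 3 of each compound. No source used here says how reads that map to both were assigned, so the split between HSPA6 and HSPA7 is uncertain.

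HSPH1 (chromosome 13, 31134973 to 31162388, NCBI gene 10808) encodes HSP105, the stress-inducible HSP110 that exchanges nucleotide on HSP70. It had 15462, 11553 and 7078 normalised counts under JPX-0700 and 10845, 8881 and 5569 under JPX-0750, against 1354, 846 and 1838 with DMSO. The lowest treated library was above the highest DMSO library, and unlike HSPA6 the gene had 7128 DMSO reads. HSPH1 rose 8.43-fold with JPX-0700 (log2 fold change 3.08 ± 0.44 SE, n = 3 per group, limma adjusted p = 0.000150). With JPX-0750 it rose 6.34-fold (2.66 ± 0.44, adjusted p = 0.000768). The JPX-0750 call was lost when the variance was not allowed to follow expression (adjusted p = 0.0642). Replicate 3 was the lowest treated library for HSPH1 with either compound, while for HSPA6 it was the highest with JPX-0700.

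HSPA1A (chromosome 6, 31815543 to 31817942, NCBI gene 3303) and HSPA1B (31827738 to 31830254, NCBI gene 3304) encode the major stress-induced HSP70 and have nearly the same coding sequence. HSPA1A was listed at 0 in all 9 libraries. HSPA1B had 27.7, 0 and 5.56 normalised counts under JPX-0700 and 13.7, 0 and 10.0 under JPX-0750, against 0, 0.383 and 0 with DMSO. These are 8, 10 and 1 reads per group, and in each treated group 1 library had none. The ratio of HSPA1B reads per scaled depth was 52.8 with JPX-0700 (exact 95% counting interval 7.08 to 2343) and 50.2 with JPX-0750 (7.14 to 2177), which leaves out the spread between libraries. On the log scale the differences were 2.36 ± 1.56 (SE, n = 3 per group, limma adjusted p = 0.413) and 2.29 ± 1.56 (adjusted p = 0.536), so neither passed.

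A value at 0 for HSPA1A is not read here as absence of the transcript. Of 142 protein-coding genes in the table that start within 2 Mb of HSPA1A, 108 (76.1%) had no read in any library, and within 1 Mb it was 63 of 80 (78.8%). Elsewhere in the genome it was 3938 of 17900 (22%), and from 4 to 8 Mb away on the same chromosome 13 of 67 (19.4%). Within these 2 Mb, RPS18, a ribosomal protein gene that every growing cell uses, had 1 read over all libraries. BAG6, a chaperone of membrane proteins, DDX39B, an RNA helicase of mRNA export, and CLIC1, a chloride channel protein, had none. These windows and genes were chosen after their values were seen. HSPA1B and HSPA1A also share sequence: 70.4% of the 70-base windows of the HSPA1B transcript occur in that of HSPA1A, but 0% in its last 500 bases. For HSPA1A the shares were 71.5% and 18.6%. No source used here gives the treatment of reads that map to several places, and the part of either feature in the low values was not tested.

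**Figure D2:**
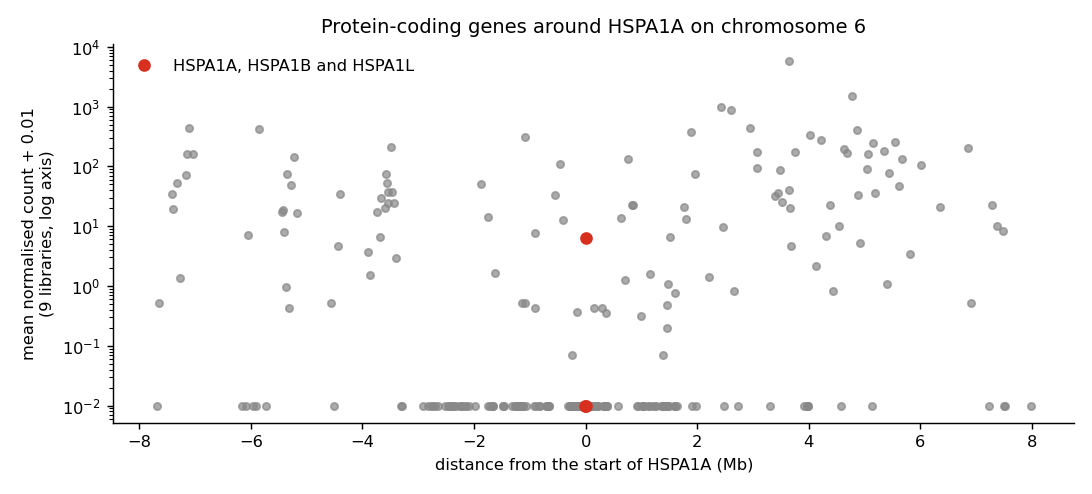
Mean normalised count + 0.01 over the 9 libraries on a log axis (y) of each protein-coding gene against the distance of its start from that of HSPA1A in Mb (x). Red points are HSPA1A, HSPA1B and HSPA1L. Points on the bottom line had no read, as did 108 of the 142 genes within 2 Mb.

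The other HSP110 genes are counted with the constitutive members. HSPA4L (chromosome 4, 127781796 to 127840733, NCBI gene 22824) encodes APG-1, a nucleotide exchange factor best known from mouse testis. It had 1419, 689 and 584 normalised counts under JPX-0700 and 1178, 859 and 686 under JPX-0750, against 76.3, 33.0 and 95.3 with DMSO. All 6 treated libraries lay well above the 3 DMSO libraries. HSPA4L rose 13.1-fold with JPX-0700 (log2 fold change 3.72 ± 0.54 SE, n = 3 per group, limma adjusted p = 0.000200) and 14.0-fold with JPX-0750 (3.81 ± 0.54, adjusted p = 0.000165). The span of HSPA4L overlaps LOC112268470 and RPL21P53, so its reads may include theirs.

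HSPA4 (chromosome 5, 133052013 to 133106449, NCBI gene 3308) encodes APG-2, the paralogue of HSPA4L that serves as the general HSP110 in many tissues. It had 1148, 861 and 636 normalised counts under JPX-0700 and 986, 991 and 808 under JPX-0750, against 388, 416 and 734 with DMSO. JPX-0700 replicate 3 lay within the DMSO range, while the JPX-0750 libraries all lay above it. The log2 differences were 0.80 ± 0.44 (SE, n = 3 per group, limma adjusted p = 0.327) and 0.91 ± 0.44 (adjusted p = 0.363). Their 95% intervals, -0.12 to 1.73 and -0.01 to 1.83, do not reach the fitted change of HSPA4L or HSPH1. Of the 3 HSP110 genes, then, HSPH1 and HSPA4L rose and HSPA4 did not pass. The differences between these genes were not tested.

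HSPA2 (chromosome 14, 64535905 to 64543237, NCBI gene 3306) encodes an HSP70 best known from developing sperm. It had 498, 388 and 158 normalised counts under JPX-0700 and 490, 414 and 76.6 under JPX-0750, against 0, 17.3 and 9.69 with DMSO. Replicate 3 was the lowest library of each compound, yet still above all DMSO libraries. HSPA2 rose with JPX-0700 by 5.76 on the log2 scale (± 1.06 SE, n = 3 per group, limma adjusted p = 0.00195) and with JPX-0750 by 5.43 (± 1.06, adjusted p = 0.00382).

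The size of the HSPA2 change moved with single libraries, but not the call. Without DMSO replicate 1, where HSPA2 had no read, it was 4.49 with JPX-0700 and 4.17 with JPX-0750. Without DMSO replicate 2 it was 6.58 and 6.26, and without JPX-0750 replicate 3 the JPX-0750 value was 6.28. The span of HSPA2 overlaps the antisense gene HSPA2-AS1, and no source used here gives the strand that was counted, so reads of these genes cannot be told apart.

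HSPA8 (chromosome 11, 123057489 to 123062462, NCBI gene 3312) encodes HSC70, the constitutive cytosolic HSP70 of all cells. It had 3567, 2519 and 3818 normalised counts under JPX-0700 and 2540, 1996 and 2910 under JPX-0750, against 705, 1901 and 1370 with DMSO. The treated libraries all lay above the DMSO libraries, by a margin of only 1996 to 1901 between the nearest. For JPX-0700 the fold was 2.65 (log2 1.41 ± 0.43 SE, n = 3 per group, limma adjusted p = 0.0631). For JPX-0750 it was 2.00 (1.002 ± 0.43, adjusted p = 0.277).

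With JPX-0700 HSPA8 passed in 3 other settings. These were a filter at a mean of 50 (adjusted p = 0.0487), the fit without DMSO replicate 2 (0.0470) and limma-voom on recovered reads (0.0287). With JPX-0750 it passed in none of 21.

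The span of HSPA8 holds the small nucleolar RNA genes SNORD14C, SNORD14D and SNORD14E, whose products guide RNA methylation and are cut from introns. Together they had 2.04, 2.07 and 3.62 reads per read of HSPA8 in the JPX-0700 libraries and 3.16, 2.96 and 2.86 with JPX-0750, against 0, 0.00101 and 0.0118 with DMSO. SNORD14C, SNORD14D and SNORD14E rose by 10.29 ± 0.60, 9.41 ± 0.76 and 11.45 ± 0.62 on the log2 scale with JPX-0700 (SE, n = 3 per group, limma adjusted p = 2.82e-09, 1.56e-07 and 1.60e-09). With JPX-0750 they rose by 10.47 ± 0.60, 9.02 ± 0.76 and 11.26 ± 0.62 (adjusted p = 1.61e-09, 2.47e-07 and 1.28e-09). The DMSO group held 5, 28 and 2 reads of them, and for SNORD14E the ratio per scaled depth was 12572 (exact 95% counting interval 3478 to 103848) and 10759 (2977 to 88871). The part of reads from these genes or from unspliced RNA in the HSPA8 values was not tested.

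**Figure D3:**
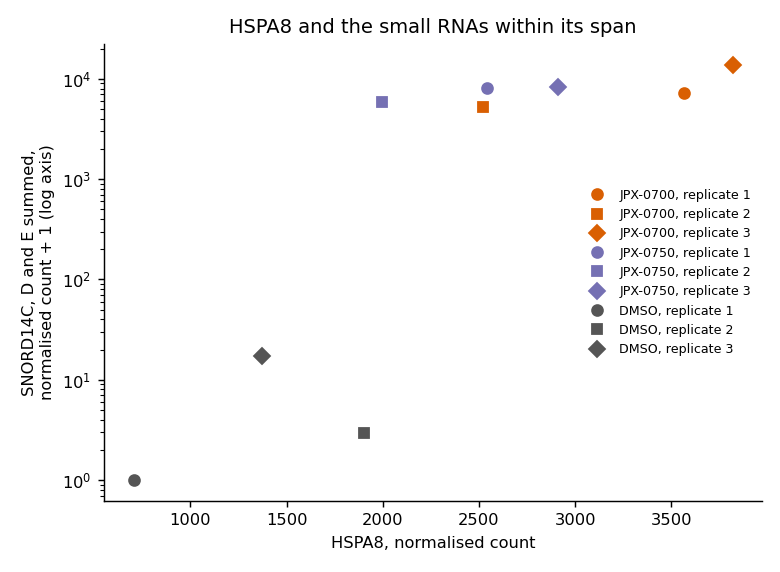
Summed normalised count + 1 of SNORD14C, SNORD14D and SNORD14E on a log axis (y) against the normalised count of HSPA8 (x) in the 9 libraries. The 6 treated libraries lie above and to the right of the 3 DMSO libraries, far above on the y axis and by a small margin on the x axis.

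HSPA13 (chromosome 21, 14371115 to 14383146, NCBI gene 6782) encodes STCH, a short HSP70-like ATPase found with microsomes rather than in the cytosol. It had 55.3, 63.4 and 5.56 normalised counts under JPX-0700 and 44.5, 22.7 and 125 under JPX-0750, against 8.08, 36.4 and 31.8 with DMSO. The groups overlapped, with as few as 2 reads in JPX-0700 replicate 3. The log2 differences were 0.36 ± 1.23 (SE, n = 3 per group, limma adjusted p = 0.894) and 1.20 ± 1.23 (adjusted p = 0.697). The JPX-0700 value changed sign when libraries were scaled to equal totals (-0.30) and without DMSO replicate 1 (-0.28) or JPX-0700 replicates 1 or 2 (-0.12 and -0.22). Without JPX-0700 replicate 3 it was 1.43. The span of HSPA13 overlaps LOC105369304, so its reads may include those of that gene.

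HSPA14 (chromosome 10, 14838306 to 14871741, NCBI gene 51182) encodes an HSP70 that works with the J-domain protein of DNAJC2 at the ribosome. It had 221, 160 and 781 normalised counts under JPX-0700 and 157, 177 and 122 under JPX-0750, against 220, 205 and 224 with DMSO. JPX-0700 replicate 3 stood far above all other libraries, and JPX-0750 libraries lay below all DMSO libraries. The log2 differences were 0.48 ± 0.61 (SE, n = 3 per group, limma adjusted p = 0.685) with JPX-0700 and -0.52 ± 0.61 (adjusted p = 0.743) with JPX-0750. The JPX-0700 difference was -0.20 without replicate 3 of that group and -0.25 under equal totals. The span of HSPA14 overlaps MSANTD7 and SUV39H2-DT, so its reads may include theirs.

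**Figure D4:**
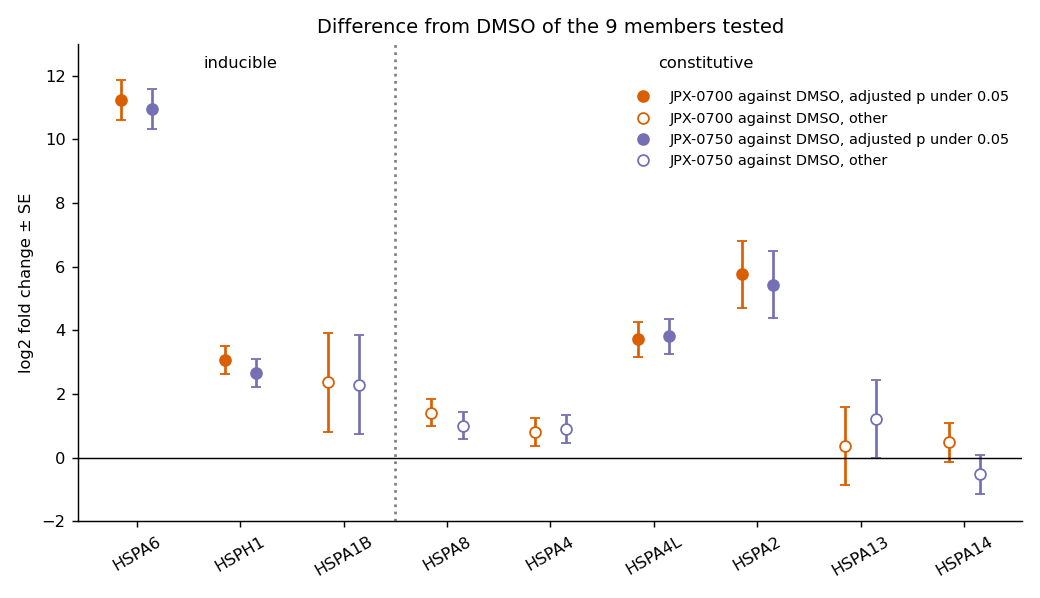
Log2 fold change from DMSO (y) of the 9 members tested (x) with JPX-0700 (orange) and JPX-0750 (purple), with bars of 1 SE. Filled points passed an adjusted p of 0.05 in limma: HSPA6, HSPH1, HSPA4L and HSPA2 with each compound. Values of HSPA6 and HSPA1B rest on 2 and 1 DMSO reads.

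As a share of all reads on genes, the 4 inducible members took 0.530%, 0.390% and 0.274% in the JPX-0700 libraries and 0.384%, 0.326% and 0.242% in the JPX-0750 libraries, against 0.0558%, 0.0350% and 0.0846% with DMSO. The 6 constitutive members took 0.203%, 0.141% and 0.116% in the JPX-0700 libraries and 0.147%, 0.135% and 0.146% in the JPX-0750 libraries, against 0.0576%, 0.108% and 0.113% with DMSO. The treated libraries were above the DMSO libraries for both classes, widely for the inducible genes and narrowly for the constitutive genes, whose nearest libraries were at 0.116% with JPX-0700 and 0.113% with DMSO. Protein-coding genes took 80.1% to 82.7% of reads with JPX-0700, 76.4% to 80.3% with JPX-0750 and 98.2% to 98.6% with DMSO. The rest includes the small structured RNAs and the noncoding RNA MALAT1, at 3.62% to 7.85%, 3.49% to 8.92% and 0.176% to 0.547%. Over protein-coding reads alone, the inducible share was 0.331% to 0.662% with JPX-0700, 0.301% to 0.502% with JPX-0750 and 0.0355% to 0.0862% with DMSO. The constitutive share over coding reads was 0.141% to 0.253% with JPX-0700, 0.169% to 0.193% with JPX-0750 and 0.0586% to 0.115% with DMSO, a wider gap than over all reads. The smaller coding part of treated libraries raises the shares of both classes there.

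The make-up of the family's reads shifted with treatment. HSPA8 gave 14.3% to 19.0% of them with JPX-0700 and 13.1% to 23.2% with JPX-0750, against 25.6% to 55.0% with DMSO. HSPA6 gave 7.95% to 34.9% with JPX-0700 and 12.4% to 17.9% with JPX-0750, against 0% to 0.0222% with DMSO. HSPA4, whose normalised count did not pass the test, gave 3.17% to 4.88% with JPX-0700 and 5.07% to 6.51% with JPX-0750, against 12.0% to 17.1% with DMSO. For each of these 3 genes the treated ranges did not overlap that of DMSO. The same held for HSPA4L and HSPA2, whose shares were higher with treatment, and for HSPA14, whose share was lower. The ranges of HSPA13 overlapped. HSPH1, which gave the largest share in each treated library, did overlap, at 35.3% to 65.5% with JPX-0700 and 44.4% to 58.3% with JPX-0750, against 24.5% to 49.2% with DMSO. These shares sum to a fixed whole, so a larger share of one gene makes the others smaller. How often genes outside the family separate in this way was not counted. By normalised count, JPX-0700 libraries lay wholly above DMSO libraries for 16.5% of all genes and JPX-0750 libraries for 19.7%. Libraries wholly below were not counted.

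**Figure D5:**
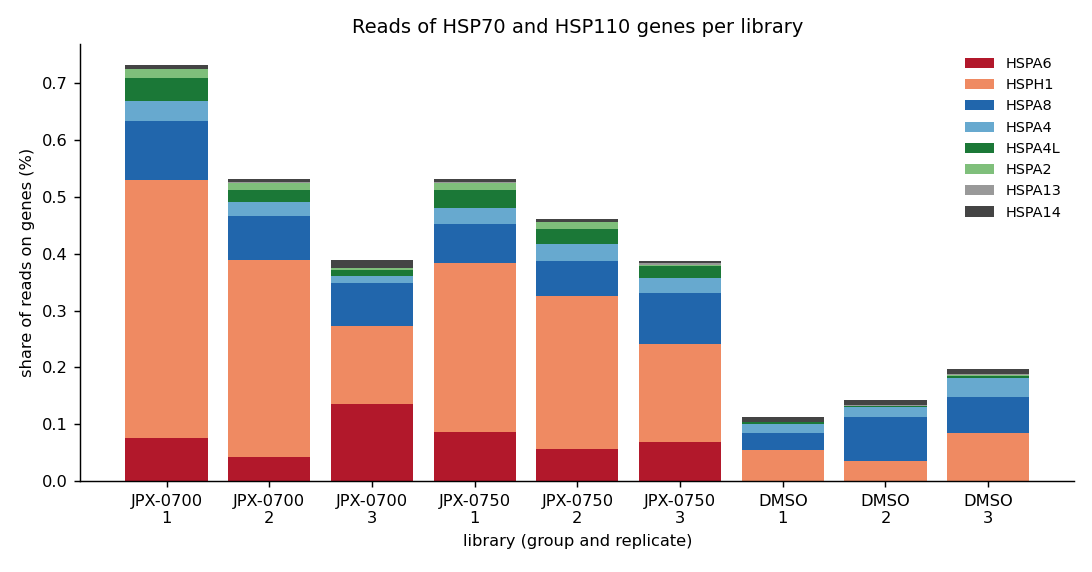
Share of all reads on genes in percent (y) taken by HSP70 and HSP110 members in each library (x), stacked by gene. Totals were 0.390% to 0.733% with JPX-0700, 0.388% to 0.531% with JPX-0750 and 0.113% to 0.198% with DMSO. HSPA1A and HSPA1B are left out, since they had at most 6 reads in a library.

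JPX-0750 was compared directly with JPX-0700 as the only pair of compounds, both at 24 h. No member passed, 0% of all genes were called in limma, and limma-voom called 0 as well. At an unadjusted p under 0.05 the count was 395 of 12301 genes and 0 of the 9 members. The log2 difference of HSPA6 was -0.30, with a 95% interval of -1.63 to 1.03, and that of HSPH1 was -0.41 (-1.33 to 0.51). For HSPA8 it was -0.41 (-1.31 to 0.50), for HSPA4 0.11 (-0.81 to 1.03) and for HSPA4L 0.09 (-1.05 to 1.24). HSPA2 gave -0.32 (-2.54 to 1.90), HSPA13 0.84 (-1.74 to 3.42), HSPA14 -1.01 (-2.29 to 0.28) and HSPA1B -0.07 (-3.35 to 3.20). The adjusted p of the 9 members ran from 0.848 to 0.998. For every one of them the libraries of the compounds overlapped, and these intervals give the differences that the data allow. By replicate number, HSPH1 and HSPA8 were lower with JPX-0750 in 3 of 3 pairs of libraries, and no other member had one direction in all 3. The share of all genes with one direction in all 3 was not counted, so this does not set these genes apart. That libraries of the same number are pairs is not established. Fitted with the replicate number as a block over the 6 libraries of the compounds, a setting added after the data were seen, HSPH1 differed by -0.41 (-0.95 to 0.13) and HSPA8 by -0.41 (-1.07 to 0.26), both at a limma adjusted p of 0.814. That fit called 0 of 12301 genes, with 212 at an unadjusted p under 0.05. In the order of levels of HSPA6, HSPH1, HSPA4L and HSPA2, then, the compounds are neighbours that did not differ beyond their spread, and both lay above DMSO.

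Other HSP70 relatives that were measured did not pass, apart from HSPA7. HSPA5, the HSP70 of the endoplasmic reticulum, had log2 differences of 0.61 ± 0.44 with JPX-0700 and 0.37 ± 0.44 with JPX-0750 (SE, n = 3 per group, limma adjusted p = 0.461 and 0.745). HSPA9, the mitochondrial HSP70, had 0.04 ± 0.41 and 0.01 ± 0.41 (adjusted p = 0.974 and 0.994), and HYOU1, the HSP110 relative of the endoplasmic reticulum, had 1.51 ± 0.55 and 0.51 ± 0.55 (adjusted p = 0.132 and 0.721). HSPA1L, HSPA12A and HSPA12B were under the filter. HSPA1L lies beside HSPA1A and had no read, and the other two had 1 read each.

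Partners of the HSP70 cycle were read from a list of 19 genes, all of which were tested. With JPX-0700 6 rose and 0 fell, with a list median of 1.72, and with JPX-0750 4 rose and 0 fell, with a median of 0.68. Over all genes tested 5.28% and 3.9% rose, with medians of 0.14 and 0.26. The J-domain genes DNAJB1, whose product is the main partner of stress-induced HSP70, DNAJA4 and DNAJB4 rose with both. Under JPX-0700 their log2 fold changes were 5.10 ± 0.43 (SE, n = 3 per group, limma adjusted p = 2.42e-07), 3.41 ± 0.43 (4.50e-05) and 6.49 ± 0.97 (0.000261). The JPX-0750 values were 4.44 ± 0.43 (1.47e-06), 3.40 ± 0.43 (4.18e-05) and 5.53 ± 0.97 (0.00149). BAG3, which frees clients from HSP70 and links it to autophagy, rose by 5.76 ± 0.47 (1.87e-07) with JPX-0700 and 4.80 ± 0.47 (1.95e-06) with JPX-0750. DNAJB4 had no read in DMSO replicate 1, without which its change was 5.02 with JPX-0700 and 4.06 with JPX-0750. Without DMSO replicate 2 or 3 the DNAJB4 change was 7.20 or 7.25 with JPX-0700 and 6.25 or 6.29 with JPX-0750.

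DNAJA1, a further J-domain gene, and ST13, whose product HIP slows ADP release, rose with JPX-0700 by 1.76 ± 0.39 and 2.02 ± 0.44 (SE, n = 3 per group, limma adjusted p = 0.0102 and 0.00860). ST13 no longer passed when DMSO replicate 2 was left out (adjusted p = 0.0549). With JPX-0750 DNAJA1 and ST13 had 1.36 ± 0.39 and 1.50 ± 0.44 (adjusted p = 0.0628 and 0.0669). They passed there without JPX-0700 replicate 3 (0.0231 and 0.0423) and without JPX-0750 replicate 3 (0.0339 and 0.0352). Without the library with the fewest genes in each group, 8 of the 19 partners rose with JPX-0700 and 9 with JPX-0750, while the share of all genes that rose was also larger there, at 17.5% and 17.8%.

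Of 12 HSF and other heat shock genes, 5 rose with JPX-0700 and 4 with JPX-0750, 0 fell with either, and the list medians were 1.37 and 1.33. The shares of all genes that rose were 5.28% and 3.9%. HSPB1, a small heat shock protein, rose by 4.38 ± 0.61 with JPX-0700 and 3.26 ± 0.61 with JPX-0750 (SE, n = 3 per group, limma adjusted p = 0.000127 and 0.00286). CHORDC1, an HSP90 co-chaperone, rose by 3.19 ± 0.48 and 2.77 ± 0.48 (adjusted p = 0.000267 and 0.00129). SERPINH1, a collagen chaperone, rose by 2.49 ± 0.52 and 2.79 ± 0.52 (adjusted p = 0.00626 and 0.00257), and HSP90AA1, the inducible cytosolic HSP90, by 2.34 ± 0.42 and 2.26 ± 0.42 (adjusted p = 0.00151 and 0.00227). HSPD1, the mitochondrial chaperonin, rose with JPX-0700 by 1.52 ± 0.42 (adjusted p = 0.0391). The transcript of HSF1 itself did not pass, with 1.20 ± 1.48 and 2.20 ± 1.48 (adjusted p = 0.675 and 0.529).

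Some of these calls were lost when 1 library was left out. Without JPX-0700 replicate 3 HSP90AA1 no longer passed with either compound (adjusted p = 0.107 with JPX-0700 and 0.0622 with JPX-0750), although its log2 fold changes were then 2.05 and 2.26. Its lowest treated library, at 52451 normalised counts, was 3.65 times its highest DMSO library, at 14366. HSPB1 with JPX-0750 was lost without JPX-0750 replicate 3 (0.0581), and with JPX-0700 its change was 5.10 and 3.67 without replicates 2 and 3 of that group. HSPD1 was lost without JPX-0700 replicate 1 or 3, JPX-0750 replicate 1 or 2, or DMSO replicate 1 or 2 (adjusted p = 0.0573 to 0.203).

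Genes whose log2 values followed a member most closely over the 9 libraries were named by Pearson's r among 12292 genes that are no member. For HSPA8 these were CEBPD, RCN3, IARS, TRIB3 and DCP1A, with r of 0.979 to 0.968. For the sum of HSPA1A and HSPA1B they were BCL2A1, AMD1, PNRC1, C11orf71 and SHOC2, with r of 0.941 to 0.879, but that sum never passed 27.7 normalised counts. For HSPA6, added after values were seen, they were HIST1H3J, ZFAND2A, SNORD96A, SCARNA7 and RNU5A-1, with r of 0.998 to 0.995. For HSPH1, also added, they were NFAT5, CAPN7, SNORD57, N4BP2L2 and FBXW7, with r of 0.992 to 0.983. These values describe 9 libraries that fall into treated and DMSO clusters and share depth and small RNA content. Among the neighbours of HSPA6 and HSPH1, SNORD96A, SCARNA7, RNU5A-1 and SNORD57 are small structured RNAs.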

How the data were processed

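RNA of MV4-11 cells was read in 9 libraries, 3 per group, as single reads of 70 bases, per the labels. Per the submitters' processing notes, GRCh38 was the build, and the tools were STAR 2.4.2a, featureCounts 2.0.3, DESeq2, SAMtools 1.4 and FastQC 0.11.9; no source used here gives the annotation, the strand or the treatment of multiply mapped reads. The authors deposited normalised counts with decimal commas. In every library all values above 0 (100%) were whole multiples of its smallest value, at a tolerance of 1e-06, so reads were recovered by division.

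From these, log2(normalised count + 1) was fitted in limma 3.58.1 (R 4.3.3), with variance trend, 3 group means and 6 residual degrees of freedom, for 12301 genes with a mean of at least 5; tests were two-sided. The added 1 understates changes of weakly expressed genes. Count models were replaced by limma-voom, an alternative added after the files were seen. Fits were tried on simulated data with planted changes in JPX-0700 only and the same spread for every gene and library. A library with fewer genes in each group was not simulated, so the simulation does not bear on that feature. Deviations from group means correlated at 0.129 to 0.190 between JPX-0700 and JPX-0750 libraries of the same number and at -0.198 to 0.153 between those of other numbers. These ranges overlap, and replicate 3 had the fewest genes in each compound group, so pairing is not established. The part of that shared feature in the correlations was not tested. Blocked values, which take the numbers as pairs between the compounds, are given there as an alternative only. That choice came from the data and not from the labels. With DMSO, libraries of the same number correlated at -0.143 to -0.0436, so pairing with DMSO is not established either. The replicate block over all 9 libraries still took them as pairs, as an alternative only.

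Of 26929 symbols, 24159 matched RefSeq symbols and 1498 synonyms. All 10 members were named, as were genes of 3 fixed lists that passed and the 5 genes most like a member. Members and lists were chosen with earlier results of these data known. Alternatives were other pseudocounts, filters, scalings, fits and libraries left out. Counting intervals (95%, exact) cover counting error only.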

Additional observations from a re-analysis of the deposited data

How the results depend on the processing

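The 4 members that rose kept their direction in the 21 alternatives run for each compound. Of their 8 calls, only that of HSPH1 with JPX-0750 was ever lost (no variance trend, adjusted p = 0.0642). Leaving out the library with the fewest genes of each group gave 9 called HSP70 cycle partners with JPX-0750, against 4 in all libraries. The replicate block covered all 9 libraries and so paired DMSO with treated libraries by number too, although that pairing is not established. It left 4 members called with each compound and 694 and 473 genes in all, against 710 and 489 without it. It also ended the call of HSPD1 with JPX-0700 (limma adjusted p = 0.0503) and of no other named gene. Between the compounds 0 genes were called with or without the block. Counts over all genes ran from 373 to 2601 with JPX-0700 and from 254 to 2559 with JPX-0750. The highest came without the 3 libraries with the fewest genes, and limma-voom gave 1299 and 945. Over all genes the median change was 0.14 with JPX-0700 and 0.26 with JPX-0750, but -0.50 and -0.23 at equal totals and -0.18 with both after quantile normalization. Relative to that median HSPA8 stood at 1.26, 1.17 and 1.07 with JPX-0700 as deposited, at equal totals and after quantile normalization. With JPX-0750 it stood at 0.74, 0.70 and 0.90.

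Signs turned only where no call was made. At equal totals HSPA13 and HSPA14 had -0.30 and -0.25 with JPX-0700. Without the 3 libraries HSPA14 had -0.19 with JPX-0700 and HSPA13 -0.092 with JPX-0750. Between JPX-0750 and JPX-0700 that setting gave 0.37 for HSPA6, -0.0077 for HSPA4, 0.035 for HSPA2 and -0.87 for HSPA13; quantile normalization gave 0.0042 for HSPA6 and -0.35 for HSPA13, and HSPA1B had 0.078 at equal totals and 0.010 by voom. Leaving out 1 library gave ranges that cross 0 with JPX-0700 for HSPA13 (-0.28 to 1.43) and HSPA14 (-0.20 to 0.94). Between the compounds it did so for HSPA1B (-1.33 to 1.15), HSPA6 (-0.83 to 0.33), HSPA4 (-0.10 to 0.32), HSPA4L (-0.16 to 0.48), HSPA2 (-0.81 to 0.52) and HSPA13 (-0.23 to 1.42). The cause was not tested.

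Calls of other heat shock genes that were lost with JPX-0700 included DNAJA1 (0.122 at equal totals, 0.0533 after quantile normalization), ST13 (0.0870 at equal totals), HSP90AA1 (0.364 after quantile normalization) and SERPINH1 (0.0788 without variance trend). With JPX-0750 HSP90AA1 was lost after quantile normalization (log2 0.69, adjusted p = 0.305), without variance trend (0.0749) and in the fit of only 2 groups (0.0796). Without variance trend HSPB1 (0.0978), CHORDC1 (0.0521) and SERPINH1 (0.0557) were lost with it too. Planned edgeR and DESeq2 fits were not run, since the deposited decimal commas kept the unit from being checked. At 726043 to 1941860 reads per treated library 1 read is up to 4.61 normalised counts, and HSPA1B had at most 6 reads in a library.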
